A study of Mus musculus with 60 samples.

Results

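The comparison described here is that of livers from female mice after 40 weeks on a control diet with livers of females after 20 weeks on the same diet. Its members are the 5 female control libraries of 40 weeks (animals 452, 453, 461, 462 and 463) and the 5 of 20 weeks (animals 202, 203, 381, 382 and 383), 10 of the 60 libraries of the series. All 60 mice were of CC042/GeniUnc, an inbred strain of the Collaborative Cross, and the 12 groups of sex, diet and duration held 5 animals each. The control diet was the ingredient-matched low-fat, reduced-sucrose TD.08485, and the other diet of the series was the high-fat, high-sucrose (HF/HS) TD.88137. The labels name no transgene or drug in any of these groups. The sources used here do not state at what age the diets began, at what hour livers were taken or what the animal numbers mean. Total RNA depleted of ribosomal RNA was sequenced from whole liver, so each value mixes hepatocytes with all other liver cells, and fewer cells of a type cannot be told apart from less RNA per cell.

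The liver carries a molecular clock in which the activators Arntl (Bmal1), Clock and Npas2 drive their own repressors, the Per and Cry genes, through E-box sequences. The nuclear receptors Nr1d1 and Nr1d2 repress genes that carry an AGGTCA site. Dbp, Tef and Hlf are output factors that bind D-box sequences. The clock runs on a daily cycle, so the level of these transcripts depends on the hour of collection. Liver also expresses many genes that differ between males and females, largely set by the pattern of growth hormone release, and holds Kupffer cells, the resident macrophages of its sinusoids.

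Genes of the clock were prominent among those that changed, and promoter sequences of 4 of them are shown because they hold matches to the short sequences named above. Of the 9 clock genes that passed the test, 6 had an entry in the RefSeq promoter table (GRCm38.p6, the assembly behind mm10). Each sequence below runs 5′ to 3′ on the gene's own strand over 220 bases, from 250 to 31 bases before the annotated start, and matches to a searched motif on either strand are in capitals. The first is that of Per3, chr4:151044696-151044915 on the minus strand, with 2 D-box matches that begin at positions -205 and -158. Those of Cry1 (chr10:85185085-85185304, minus strand, position -60) and Tef (chr15:81811164-81811383, plus strand, position -138) each hold 1 E-box match. Tef has 2 windows, each with 1 E-box match. The sequence shown is that of the start further inside the gene, because the other overlaps an annotated exon. That of Nr1d2 (chr14:18239137-18239356, minus strand, position -77) holds 1 nuclear receptor match.
Per3: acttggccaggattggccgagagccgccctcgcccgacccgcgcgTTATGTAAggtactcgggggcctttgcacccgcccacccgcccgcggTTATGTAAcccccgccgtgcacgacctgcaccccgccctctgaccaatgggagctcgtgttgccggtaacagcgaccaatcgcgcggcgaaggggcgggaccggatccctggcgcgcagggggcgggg
Cry1: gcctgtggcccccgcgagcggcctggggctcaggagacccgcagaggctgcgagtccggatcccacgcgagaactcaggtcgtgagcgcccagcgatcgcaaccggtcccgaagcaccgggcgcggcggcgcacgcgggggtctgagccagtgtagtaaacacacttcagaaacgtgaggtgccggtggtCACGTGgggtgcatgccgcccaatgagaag
Tef: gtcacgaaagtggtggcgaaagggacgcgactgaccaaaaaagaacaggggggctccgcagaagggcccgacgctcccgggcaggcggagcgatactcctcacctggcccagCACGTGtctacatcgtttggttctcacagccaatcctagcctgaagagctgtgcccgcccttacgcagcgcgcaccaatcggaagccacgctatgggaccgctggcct
Nr1d2: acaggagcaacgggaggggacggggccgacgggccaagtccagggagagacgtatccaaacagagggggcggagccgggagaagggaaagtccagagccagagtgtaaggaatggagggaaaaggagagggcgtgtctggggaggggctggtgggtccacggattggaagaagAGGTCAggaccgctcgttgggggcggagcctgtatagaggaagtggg

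The motifs searched were the E-box CACGTG, the D-box TTATGTAA or TTACGTAA and the nuclear receptor site AGGTCA on both strands, and no 2 matches overlap in the sequences shown. Over all 32851 windows of 300 bases in the table, 7.15% held the E-box, 1.06% the D-box and 16.3% the nuclear receptor site. Counted by gene, over 11046 genes tested, the shares were 11.4%, 0.987% and 15.5%. Of the 6 clock genes with a window, 2 held an E-box, 1 a D-box and 1 the nuclear receptor site, the last a share near that of all genes, and the windows of Dbp and Nr1d1 held none of these letters. A match describes the sequence and was not tested as a binding site.

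Values below are CPM, that is, counts of a gene relative to the library's total after scaling, and log2 changes are 40 weeks minus 20 weeks with a standard error (SE). Adjusted p-values are those of edgeR's quasi-likelihood test over the 14180 genes tested, with the Benjamini-Hochberg adjustment, and genes under 0.05 passed. Library totals were 16686047 to 19012230 counts at 20 weeks and 12327757 to 15930025 at 40 weeks, so every 40-week library was shallower than every 20-week library. Hepatocyte transcripts were high in all 10 libraries (Alb, serum albumin, 12890 to 19030 CPM), and Xist (3285 to 4162 CPM) with Y-linked genes at or below 0.201 CPM fitted the female label. Animals 463 and 203 held pancreatic transcripts, with a sum of 15 pancreas genes of 1036 and 239 CPM against 16 to 68.9 in the other 8. The 20-week animal 383 stood apart from the rest of its group on the first principal component (33.3 against -30.5 to -10.7), near the 40-week animal 461 (30.6). It had A1bg, a plasma protein gene, at 90.4 CPM against 966 to 1531 CPM in the rest of its group and 955 to 2688 CPM in the 40-week animals. Its mean log2 CPM over 26 female-biased liver genes was 7.54, against 7.87 to 8.10 in the rest of its group. Over 25 male-biased genes it was 3.79, inside the range of its group. Of 56 genes described below that passed, 31 missed the threshold without animals 203, 383 and 463, at adjusted p-values of 0.0524 to 0.27. Besides clock, macrophage, C1q and endothelial genes treated below, these were Socs2, Ugt1a7c, Ugt1a10, Nr3c2, Nox4, Mboat1, Cdh19, Agpat2, Klb, Abca1, Ctsb, Ctsd, Igf2, Prom1 and Tnk2.

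Few genes moved far between 20 and 40 weeks. Of 14180 genes, 282 were higher at 40 weeks (1.99%) and 302 were lower (2.13%), in all 584 or 4.12%. Only 33 of the higher and 32 of the lower genes differed by 2-fold or more, and the median log2 change over all genes tested was -0.00284. For 674 genes (4.75%) the CPM ranges of the 5 and 5 animals did not overlap, and 335 of these also passed the test. The calls moved with the animals used: 272 genes passed without animal 382, 280 without 462, 287 without 461, 364 without 463 and 312 without 203, 383 and 463. Of the 584 genes 48.3% were higher, a share that was 35.3% of the 419 that passed with no filter on low counts, 38.8% without small RNA genes, 54.3% with limma voom and 59.7% with the 10 libraries alone.

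The genes that passed also differed in length by direction. The median gene span was 17.6 kb for the 282 higher genes, 56.2 kb for the 302 lower genes and 23.7 kb for all genes tested, by GENCODE M21 for mm10, in which at least 98.6% of each set had a length. Spans over 100 kb made up 9.22% of the higher genes, 25.8% of the lower and 13.3% of all. The part of gene length in the calls was not tested.

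Clock and clock output genes changed in both directions. Of 22 such genes tested, 6 were lower at 40 weeks (Dbp, Per3, Nr1d1, Nr1d2, Tef and Per2) and 3 were higher, Cry1 and Csnk1d among them, where 2.13% and 1.99% of all genes passed in those directions. The median log2 change over the 22 was 0.00245, beside -0.00284 over all genes. The core activators did not pass: Arntl differed by 0.46 (adjusted p = 0.205), Npas2 by 0.93 (adjusted p = 0.103) and Clock by 0.08 (adjusted p = 0.652). Npas2 was at 13.3, 18.2, 47.5, 27.2 and 6.57 CPM in 20-week animals 202, 203, 381, 382 and 383, and at 37.7 to 49.6 CPM at 40 weeks. It passed without animal 381 (1.38, adjusted p = 0.0199) and with limma voom (1.10, adjusted p = 0.00682). Without animals 203, 383 and 463 Npas2 differed by 0.50 (adjusted p = 0.499).

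Dbp (chromosome 7, 45705088 to 45710203), the output factor with the widest daily swing in liver, was at 10.6, 35.6, 1.54, 18.6 and 16.9 CPM in 20-week animals 202, 203, 381, 382 and 383. At 40 weeks it was at 1.34, 2.6, 1.26, 1.12 and 0.614 CPM in animals 452, 453, 461, 462 and 463. Animal 381 was within the 40-week range, and the other 4 animals of 20 weeks were far above every 40-week animal. The log2 change was -3.54 (SE 0.82, adjusted p = 0.00958). Without animals 203, 383 and 463 the log2 change of Dbp was -2.69 (adjusted p = 0.101).

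Per3 (chromosome 4, 151003652 to 151044665), a period gene of the repressor arm, was at 12.9, 28.6, 7.68, 17.3 and 28.3 CPM at 20 weeks and at 4.22, 4.13, 3.63, 3.58 and 3.33 CPM at 40 weeks, animals in the same order. All 5 animals of 40 weeks were below the lowest of 20 weeks, and they lay close together. The log2 change was -2.32 (SE 0.46, adjusted p = 0.0028), and without animals 203, 383 and 463 it was -1.70 (adjusted p = 0.0695). Per2, of the same family, was lower by less (log2 change -0.71, SE 0.21, adjusted p = 0.037), its ranges overlapped, and it failed the test in 7 of the 10 fits that left out 1 animal (381, 382, 383, 453, 461, 462 or 463).

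The repressors Nr1d1 and Nr1d2 were lower in every 40-week animal than in any 20-week animal. Nr1d1 (REV-ERB alpha) was at 162, 170, 133, 185 and 134 CPM at 20 weeks and at 40.8, 80.1, 32.6, 66.8 and 57.5 CPM at 40 weeks. Nr1d2 (REV-ERB beta) was at 158, 189, 98.9, 173 and 162 CPM against 45.7, 73.2, 51.8, 71.2 and 69.5 CPM. Animal 381 was the lowest 20-week animal for both. The log2 changes were -1.50 (SE 0.33, adjusted p = 0.00656) and -1.32 (SE 0.22, adjusted p = 0.00037). These were the clock genes that passed in all 19 alternative fits, with log2 changes of -1.68 to -1.37 and of -1.46 to -1.19.

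Tef, the output factor with an E-box in the sequence shown, fell by 0.99 (SE 0.26, adjusted p = 0.0227) on the log2 scale, from 40.7 to 109 CPM at 20 weeks to 34.2 to 51.7 CPM at 40 weeks. Animal 381 again held the lowest 20-week value, inside the 40-week range, and the adjusted p was up to 0.0602 without animal 203 or 461 and 0.182 without 203, 383 and 463. Csnk1d, a kinase of the period proteins, was higher by 0.21 (SE 0.06, adjusted p = 0.035), and failed the test in 8 of the 10 fits without 1 animal (all but those without 202 or 381).

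Cry1 moved the other way. Cry1, the cryptochrome with an E-box in the sequence shown, was at 23.6, 12.3, 21.1, 17.0 and 9.74 CPM at 20 weeks and at 38.8, 29.2, 36.1, 32.3 and 28.3 CPM at 40 weeks. All 40-week animals were above all 20-week animals. Its log2 change was 0.97 (SE 0.24, adjusted p = 0.0176), and without animals 203, 383 and 463 the adjusted p was 0.139. With those animals left out, 0 clock genes were higher and 2, Nr1d1 and Nr1d2, were lower. The hour of collection was not recorded in the sources used here, so it cannot be told apart from duration for these genes.

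**Figure D1:**
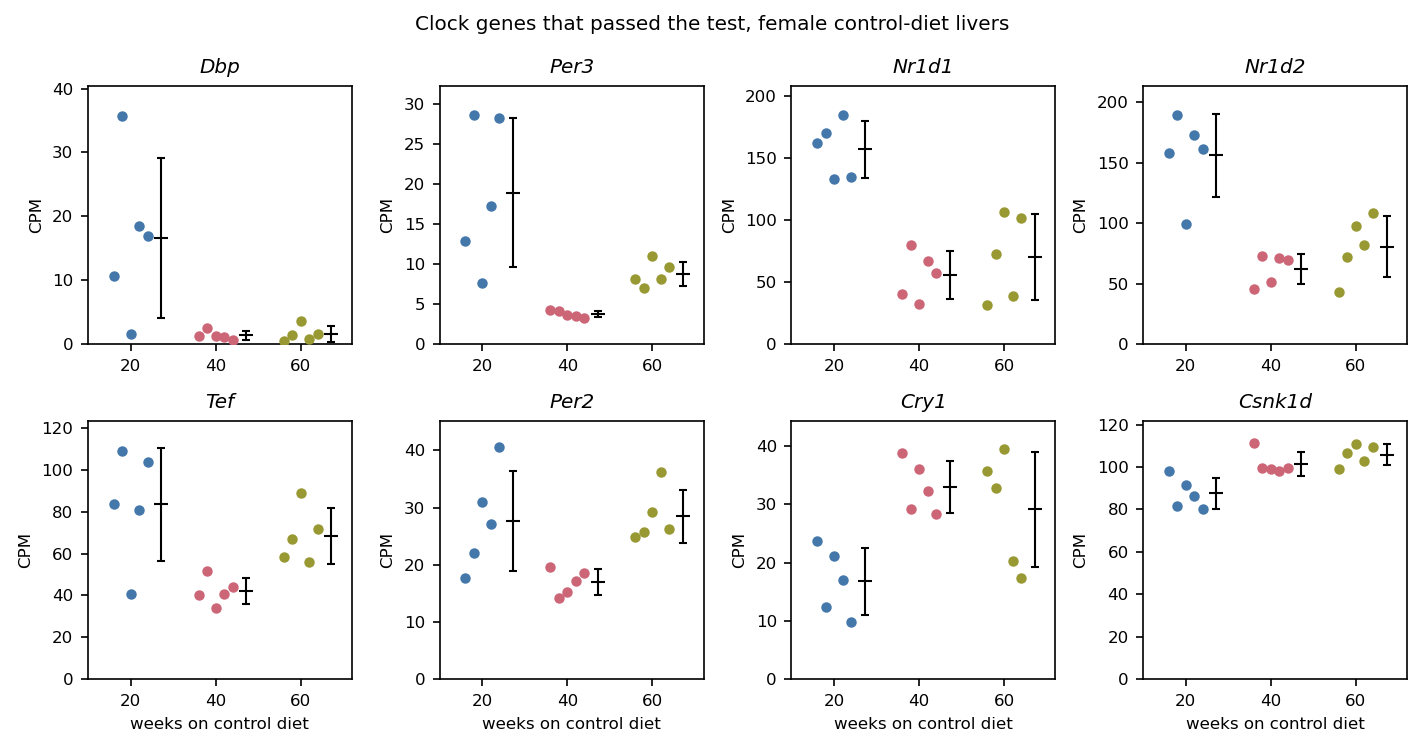
CPM of 8 clock genes that passed the test (vertical axes from 0) against weeks on the control diet in females; each point is 1 animal, and the bar beside it gives the mean and SD of 5 animals. Nr1d1, Nr1d2 and Per3 at 40 weeks lie below all 20-week animals, Cry1 above them, and a single 20-week animal is low in Dbp and Tef.

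The change in males on the same diet was different for most clock genes. Of 14180 genes, 3284 (23.2%) passed for 40 against 20 weeks in control males, and 1059 (7.47%) passed the test of the difference between the female and the male change. For 17 of the 22 clock genes the female and male changes differed by that test. Dbp rose in males by 2.65 (SE 0.63, adjusted p = 0.0014) on the log2 scale, and its female change was lower than the male one by 6.19 (SE 1.02, adjusted p = 0.00014, edgeR). Per3, Tef and Cry1 likewise had changes of opposite sign in males, at 1.73 (SE 0.41), 1.26 (SE 0.25) and -0.75 (SE 0.25). Arntl, which did not pass in females, fell by 2.16 (SE 0.23) on the log2 scale in males, and the changes differed by 2.62 (SE 0.31, adjusted p = 4.2e-07). The hour of collection is not given for the male groups either, so for these genes it cannot be told apart from sex.

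Fewer clock genes changed differently between the diets. In HF/HS females 2180 genes (15.4%) passed for 40 against 20 weeks, and for 504 genes (3.55%) the change on the control diet differed from that on HF/HS by the test of the difference. Among these were 5 of the 22 clock genes. Nr1d2, for example, changed by -0.14 (SE 0.21) on HF/HS, a difference of -1.18 (SE 0.30, adjusted p = 0.022) between the diets. The difference for Cry1 was 1.52 (SE 0.35, adjusted p = 0.012). For Dbp the difference, -2.98 (SE 1.03), did not pass (adjusted p = 0.089). Here too the hour of collection is not given, and it cannot be told apart from diet.

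At 60 weeks on the control diet, Per3 was at 7.09 to 11.0 CPM, Tef at 56.0 to 89.1 CPM and Per2 at 24.9 to 36.1 CPM, with every 60-week female above every 40-week female for these 3 genes. Dbp stayed at 0.501 to 3.66 CPM, and Nr1d1 was spread from 31.4 to 107 CPM. The 60-week values are set against groups already used above, so they are given as levels only.

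Some genes of the male-biased liver list were lower at 40 weeks. Of 25 such genes tested, 4 were lower at 40 weeks (Hsd3b5, Cyp4a12b, Socs2 and Nudt7) and 1, Mup7, was higher. Of all genes 2.13% and 1.99% passed in those directions. The median log2 change of the 25 was -0.43 against -0.00284 over all genes. Of 26 female-biased liver genes tested, 1 was lower and 1 was higher, and their median log2 change was -0.0678. Hsd3b5 (chromosome 3, 98618634 to 98630252), a steroid dehydrogenase typical of male mouse liver, was at 17.3, 2.20, 22.7, 17.6 and 7.69 CPM in the 20-week animals. At 40 weeks it was at 0.805, 0.466, 0.518, 0.492 and 0.877 CPM. All 40-week animals were thus under 1 CPM and below every 20-week animal. Its log2 change was -4.42 (SE 0.91, adjusted p = 0.00401), the lowest among the named genes. Hsd3b5 has close relatives in a gene cluster, and how shared reads were counted is not given.

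Cyp4a12b, a fatty acid hydroxylase of male liver, was at 14, 4.46, 4.43, 15.9 and 3.35 CPM at 20 weeks and at 2.08, 1.33, 0.592, 2.46 and 0.877 CPM at 40 weeks, again without overlap. Its log2 change was -2.50 (SE 0.45, adjusted p = 0.0013) and passed in all 19 alternative fits. Its near-identical copy Cyp4a12a, at a mean of 0.709 and 0.315 CPM, did not pass (log2 change -1.09, adjusted p = 0.37), and reads of the pair may have been divided between them. Socs2, an inhibitor of growth hormone signalling that growth hormone itself induces, ranged from 12.9 to 156 CPM at 20 weeks and from 8.07 to 23.8 CPM at 40 weeks. The ranges overlapped through animal 381. The log2 change of Socs2 was -2.07 (SE 0.52, adjusted p = 0.0169), and missed the threshold without animal 462 (-1.94, adjusted p = 0.0509) or 383. Without animal 383 the log2 change of Socs2 was -1.39 (adjusted p = 0.0826), and without 203, 383 and 463 it was -1.20 (adjusted p = 0.233).

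Nudt7, a peroxisomal coenzyme A hydrolase, fell by 0.80 (SE 0.21, adjusted p = 0.0255) on the log2 scale, with 115 to 203 CPM at 20 weeks and 80.9 to 108 CPM at 40 weeks, and failed without animal 382, 462 or 463. Mup7, a major urinary protein gene, rose instead. It was at 0.993, 2.62, 2.34, 0.827 and 0.992 CPM at 20 weeks and at 3.62, 6.72, 5.85, 8.57 and 6.40 CPM at 40 weeks, with no overlap. The gene's log2 change was 2.0 (SE 0.38, adjusted p = 0.00208). Mup genes are near-identical, so the share of Mup7 in these reads is uncertain. Igf1, the main growth hormone target of liver, differed by -0.29 (SE 0.12, adjusted p = 0.155).

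The change of some of these genes was different in males. In males Hsd3b5 and Cyp4a12b changed by -0.50 (SE 0.54) and -0.03 (SE 0.30), and the female change was lower by 3.92 (SE 1.10, adjusted p = 0.021) and by 2.47 (SE 0.55, adjusted p = 0.0033, edgeR). In HF/HS females the changes were -3.83 (SE 1.65), which did not pass (adjusted p = 0.105), and -2.71 (SE 0.34, adjusted p = 9.5e-07). Their differences from the control-diet change, -0.59 (SE 3.10) and 0.21 (SE 0.60), did not pass. Socs2 fell by 2.49 (SE 0.52) on the log2 scale in control males too, and its difference between the sexes was 0.42 (SE 0.71, adjusted p = 0.78).

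A few enzymes that process drugs and other foreign compounds were lower at 40 weeks. Of 26 cytochrome P450 and receptor genes tested, 3 were lower (Cyp2f2, Cyp1a2 and Cyp2c55), where 2.13% of all genes were lower, 0 were higher, and the median log2 change was -0.14. Of 31 conjugation and antioxidant enzymes 0 passed, with a median of 0.00621. That list held 6 genes at an unadjusted p under 0.05, and DESeq2 called 3 and limma voom 7. Cyp2f2, a P450 of the portal zone, was at 384, 373, 365, 441 and 291 CPM at 20 weeks and at 162, 127, 163, 215 and 172 CPM at 40 weeks. The groups were well separated, with a log2 change of -1.14 (SE 0.24, adjusted p = 0.00384) that passed in all 19 alternative fits. Cyp1a2, a P450 of the central vein zone, was at 161 to 315 CPM and then at 88.0 to 134 CPM, also without overlap. Its log2 change was -1.0 (SE 0.30, adjusted p = 0.0439), and the call was lost in 8 of 10 fits without 1 animal (all but 203 and 383), at adjusted p up to 0.117. Cyp2c55 was low throughout, 0.496 to 3.32 CPM and 0.351 to 1.27 CPM, with overlap through animal 383 (log2 change -1.46, SE 0.41, adjusted p = 0.0308, lost without 203, 381, 382, 461, 462 or 463).

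From the conjugating Ugt1a locus on chromosome 1, 3 genes that are not in that list and are named for their large changes were lower, while Ugt1a1 and Ugt1a6a, which are in the list, did not pass. Ugt1a9 (88070800 to 88218997), Ugt1a7c (88095062 to 88220002) and Ugt1a10 (88055388 to 88219004) are overlapping genes with shared 3′ exons, so their reads cannot be assigned with certainty and they count as 1 locus. Ugt1a9, which adds glucuronic acid to phenols and drugs, was at 30.3, 17.6, 14.6, 22.3 and 12.2 CPM at 20 weeks and at 4.22, 8.65, 7.77, 4.29 and 8.42 CPM at 40 weeks. No 40-week animal reached the lowest 20-week value. The log2 change was -1.55 (SE 0.29, adjusted p = 0.00198), beside -1.45 (SE 0.35) for Ugt1a7c and -1.38 (SE 0.38) for Ugt1a10, which failed without animal 382, 383, 452, 461 or 462. Without animals 203, 383 and 463 Ugt1a7c missed the threshold (adjusted p = 0.0722). In males Ugt1a9 changed by 0.34 (SE 0.30), and the sexes differed by -1.89 (SE 0.42, adjusted p = 0.003, edgeR).

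**Figure D2:**
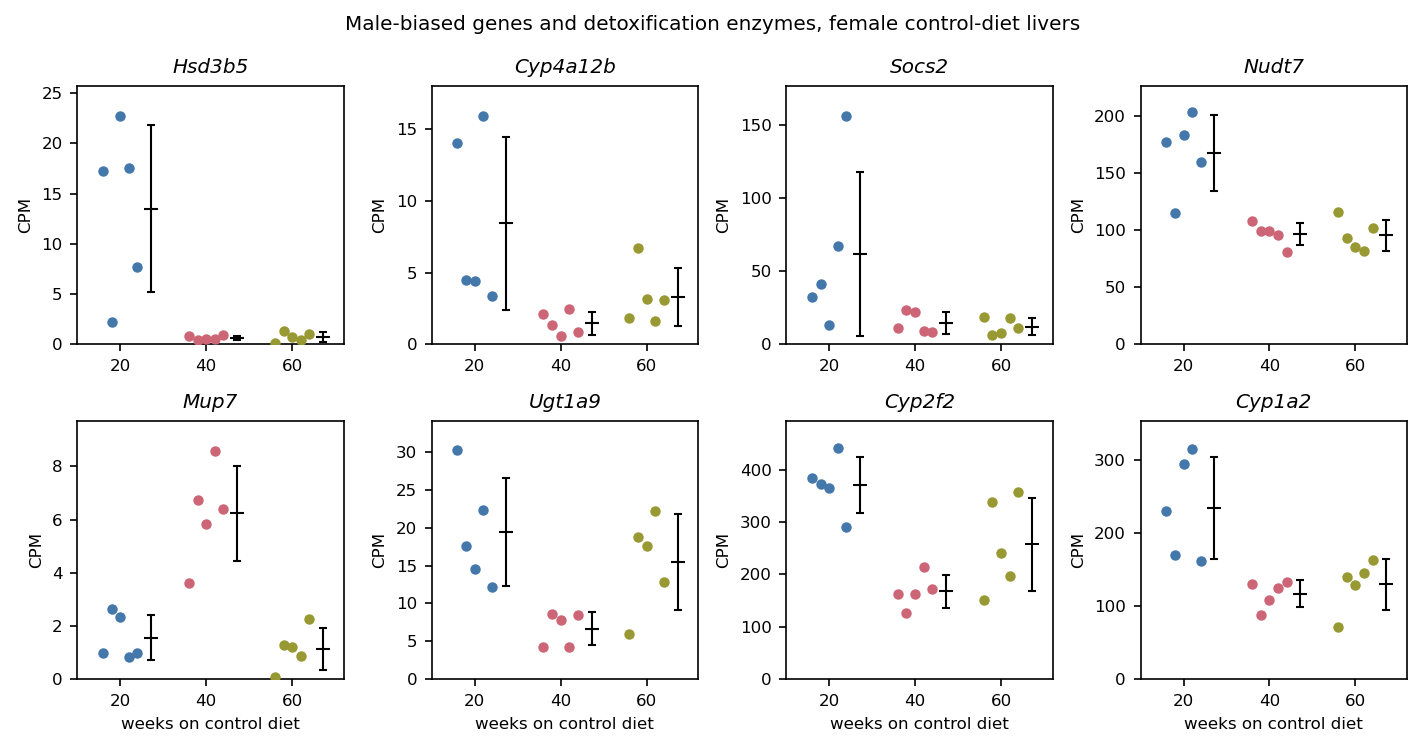
CPM (vertical axes from 0) of 5 male-biased genes and 3 detoxification enzymes against weeks on the control diet in females; each point is 1 animal, and the bar gives the mean and SD of 5 animals. Hsd3b5 lies under 1 CPM in all 40-week animals, and Cyp2f2, Ugt1a9 and Cyp1a2 show no overlap between 20 and 40 weeks.

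Macrophage transcripts were higher at 40 weeks. Of 18 Kupffer cell and macrophage markers, 6 rose (Vsig4, Adgre1, Csf1r, Clec4f, Lyz2 and Mrc1) and 0 fell, where 1.99% of all genes rose, 17 of 18 had a log2 change above 0, and the median was 0.81 against -0.00284 over all genes. Vsig4, a complement receptor of Kupffer cells on the X chromosome, was at 34.1, 42.2, 28.4, 32.5 and 42.4 CPM at 20 weeks and at 49.9, 53.5, 101, 86.6 and 105 CPM at 40 weeks. Clec4f, a lectin restricted to Kupffer cells, was at 75.9, 92.3, 70.5, 70.0 and 93.9 CPM and then at 102, 97.2, 176, 164 and 169 CPM. All 40-week animals were above all 20-week animals for both genes, but animals 461, 462 and 463 were far higher than 452 and 453, which lay just above the 20-week range. The log2 changes were 1.14 (SE 0.27, adjusted p = 0.0135) for Vsig4 and 0.82 (SE 0.22, adjusted p = 0.029) for Clec4f.

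The other 4 markers repeated this split of the 40-week animals. Adgre1 (F4/80), a general macrophage surface protein, was at 16.1 to 21.2 CPM in the 20-week animals and at 22.7, 21.9, 44.6, 39.1 and 40.3 CPM in the 40-week animals (log2 change 0.89, SE 0.27, adjusted p = 0.0473). Csf1r, the receptor for the growth factor of macrophages, was at 53.5 to 86.3 CPM and then at 92.0, 88.5, 150, 143 and 149 CPM (log2 change 0.82, SE 0.25, adjusted p = 0.0462). Lyz2, lysozyme, changed by 0.80 (SE 0.24, adjusted p = 0.0495) with a slight overlap, and Mrc1, a mannose receptor also made by sinusoidal endothelium, by 0.34 (SE 0.10, adjusted p = 0.0323). Mrc1 was at 163, 148, 188, 179 and 195 CPM in the 40-week animals.

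The complement genes C1qa and C1qc, which liver macrophages make, rose alongside. C1qc was at 31.6, 38.0, 26.9, 24.5 and 46.4 CPM at 20 weeks and at 48.1, 45.8, 87.2, 83.1 and 76.6 CPM at 40 weeks, with animal 453 just under the highest 20-week animal, 383. Its log2 change was 1.03 (SE 0.30, adjusted p = 0.0386), and that of C1qa was 0.85 (SE 0.25, adjusted p = 0.0395). Both calls were lost in 7 of the 10 fits without 1 animal (202, 203, 381, 382, 461, 462 or 463), at adjusted p up to 0.113, and without 203, 383 and 463 together (0.0524 and 0.0575). With the range of animal numbers as a covariate the adjusted p was 0.136 for C1qa and 0.143 for C1qc. Of the 29 complement and coagulation genes tested these 2 and F2, prothrombin, rose, where 1.99% of all genes rose. The summed level of the 18 markers was 621 to 802 CPM at 20 weeks and 837 to 1386 CPM at 40 weeks. That of 17 hepatocyte markers, 63305 to 72796 CPM and 69062 to 81008 CPM, overlapped between the groups.

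The macrophage calls lay close to the threshold and depended on the animals. Only 1 of the 18 markers, Vsig4, passed without animal 382, 461, 462 or 463, or without 203, 383 and 463, while the median log2 change stayed at 0.71 to 0.93. With the range of animal numbers as a covariate 1 marker, Mrc1, passed, Vsig4 did not (adjusted p = 0.0531), and the median was 0.69. In the fit by limma voom with sample weights 12 passed. At 60 weeks the summed level was 422 to 1058 CPM, with Vsig4 at 15.3 to 65.5 CPM. In control males the median was -0.13 and 1 of 18 rose, where 1476 of all 14180 genes rose. The female and male changes differed for 5 of 18, where 7.47% of all genes differed. Vsig4 was among the 5, with a difference of 1.53 (SE 0.40, adjusted p = 0.012). In HF/HS females 12 of 18 rose with a median of 0.93, where 1311 of all genes rose. The change differed between the diets at an adjusted p under 0.05 for 0 of 18, and for 3.55% of all genes.

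**Figure D3:**
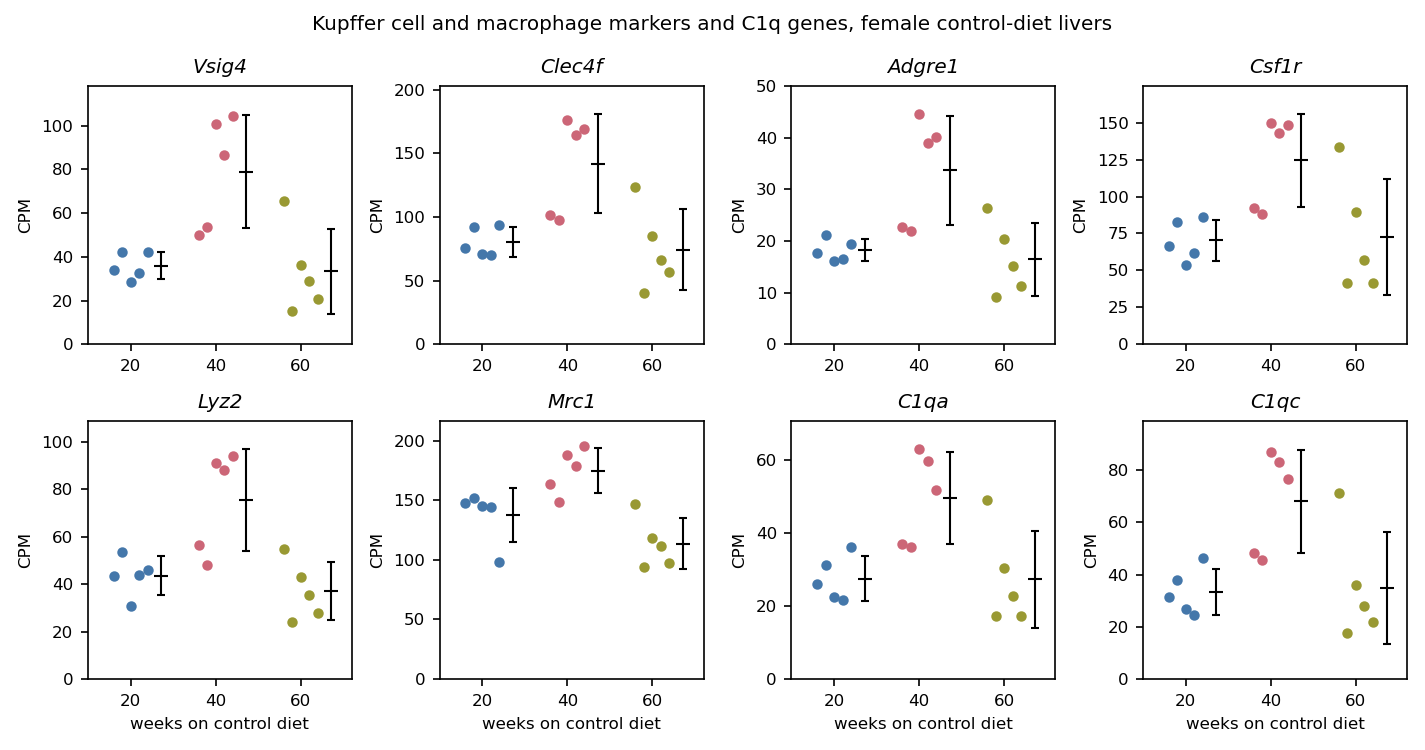
CPM (vertical axes from 0) of 6 macrophage markers and 2 C1q genes against weeks on the control diet in females; each point is 1 animal, and the bar gives the mean and SD of 5 animals. At 40 weeks 3 animals lie well above the other 2 for all but Mrc1, where the gap is small, and 1 of the 60-week animals is higher than the other 4.

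Of 14 markers of lipid-associated macrophages 1 rose, Ctsd, where 1.99% of all genes rose, and the median log2 change of the 14 was 0.39. The following 5 immune lists held 0 genes that passed edgeR's test, namely 28 interferon response genes, 24 chemokines and cytokines, 16 antigen presentation genes, 11 T and natural killer cell markers and 14 B and plasma cell markers. At an unadjusted p under 0.05 the lists held 1, 3, 9, 0 and 3 genes, DESeq2 gave 0, 0, 3, 0 and 0, and limma voom 0, 2, 5, 0 and 0. Of 27 acute phase genes 26 had a log2 change above 0 and 0 passed with edgeR or DESeq2, 8 were under an unadjusted p of 0.05, and 19 passed with limma voom and its sample weights. Saa1, a serum amyloid, was at 257, 366, 72.5, 49.5 and 1477 CPM in 20-week animals 202, 203, 381, 382 and 383. At 40 weeks Saa1 was at 1289 to 1919 CPM (log2 change 1.74, SE 0.79, adjusted p = 0.2). The summed level of the 27 acute phase genes was 31349, 27595, 22615, 24495 and 52190 CPM in those 20-week animals and 37202 to 51272 CPM at 40 weeks. Animal 383 alone of its group lay above the lowest 40-week animal for Saa1 and for the sum. Cd74, a chaperone of antigen presentation, differed by 0.68 (SE 0.23, adjusted p = 0.0765).

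Sinusoidal endothelial markers were slightly higher. Of 18 tested, 3 rose (Gpr182, Clec4g and Cdh5), where 1.99% of all genes rose, 0 fell, and the median log2 change was 0.22 against -0.00284 over all genes. Clec4g, a lectin of the sinusoidal lining, was at 86.4, 92.3, 93.9, 90.2 and 52.6 CPM at 20 weeks and at 121, 89.9, 118, 105 and 124 CPM at 40 weeks. Animal 383 was far below its group and animal 453 was inside the 20-week range. The log2 change was 0.42 (SE 0.10, adjusted p = 0.00958). Cdh5 (VE-cadherin), the junction protein of endothelium, was at 50.8 to 66.2 CPM and 70.6 to 89.2 CPM without overlap (log2 change 0.42, SE 0.10, adjusted p = 0.00839). Gpr182 differed by 0.44 (SE 0.11, adjusted p = 0.0206) and failed without animal 203, 383 or 461. Without animals 203, 383 and 463 together, 0 of the 18 passed.

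A list of genes of senescence and of p53, the DNA damage and stress regulator, held 3 higher genes of 19 tested (Phlda3, Aen and Zmat3) and 0 lower. Of all genes 1.99% were higher. The median log2 change of the list was 0.31 against -0.00284 over all genes. Aen, a nuclease induced by p53, was at 24.1 to 29.7 CPM at 20 weeks and 31.9 to 40.8 CPM at 40 weeks, without overlap (log2 change 0.44, SE 0.11, adjusted p = 0.0208). Zmat3, an RNA-binding p53 target, was at 23.8 to 27.5 CPM and 27.8 to 39.3 CPM (log2 change 0.41, SE 0.11, adjusted p = 0.0229), and Phlda3 overlapped (log2 change 1.09, SE 0.32, adjusted p = 0.0415). None of the 19 was higher at the threshold without animal 382, 452 or 462. Cdkn1a (p21), the cell cycle inhibitor, was at 38.9, 22.6, 138, 20.9 and 17.4 CPM at 20 weeks and at 200, 125, 120, 90.4 and 81.1 CPM at 40 weeks. Animal 381, which was also low in Dbp, was the sole 20-week animal in the 40-week range. The log2 change of Cdkn1a was 1.38 (SE 0.46) and did not pass (adjusted p = 0.0729), although it passed without animal 381 (log2 change 2.29, adjusted p = 0.0042). Cdkn2a was below the count filter, and 0 of 32 cell cycle genes passed with edgeR, DESeq2 or voom (1 at an unadjusted p under 0.05), with Mki67, a proliferation marker, at 0.33 (SE 0.45).

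The largest rises were in genes of low level and varied function. Loxl4 (chromosome 19, 42593982 to 42612813), a lysyl oxidase that cross-links collagen, was at 2.15, 2.50, 3.14, 3.07 and 1.92 CPM at 20 weeks and at 10.1, 5.73, 8.51, 10.1 and 8.77 CPM at 40 weeks. It had the smallest adjusted p among the genes named (log2 change 1.75, SE 0.24, adjusted p = 1.41e-05). Crybg2, a crystallin-domain gene, was at 7.56, 18.7, 15.8, 12.2 and 13.6 CPM and then at 37.6, 34.8, 24.5, 32.2 and 33.7 CPM (log2 change 1.26, SE 0.19, adjusted p = 4.74e-05). The groups were separated in both genes, and both passed in all 19 alternative fits.

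Sorcs2 (chromosome 5, 36017180 to 36398139), a sorting receptor best known from neurons, was at 0.717, 2.75, 0.861, 0.414 and 5.33 CPM at 20 weeks and at 12.1, 15.0, 28.9, 16.9 and 22.3 CPM at 40 weeks. Every 40-week animal was above every 20-week animal, and the log2 change of 3.25 (SE 0.69, adjusted p = 0.00501) was the highest among the named genes. The log2 change of Sorcs2 was 3.99 without animal 383, 4.76 without 203, 383 and 463 and 4.19 with limma voom. At 60 weeks Sorcs2 was at 69.3, 1.70, 3.66, 10.9 and 2.72 CPM, with 1 animal above all others. Micall2, a regulator of membrane recycling at junctions, was at 3.91 to 6.59 CPM and 8.74 to 19.3 CPM (log2 change 1.55, SE 0.31, adjusted p = 0.0028), and Mboat1, a lysophospholipid acyltransferase, at 0.244 to 0.738 CPM and 1.27 to 2.44 CPM (log2 change 1.71, SE 0.40, adjusted p = 0.01, and 0.0641 without 203, 383 and 463). Ly6k, Cdh19, Chrm3 and Spon2 rose by 1.27 to 2.31 on the log2 scale. Ly6k changed by 3.06 without animals 203, 383 and 463, and by 1.70 (adjusted p = 0.0973) with the range of animal numbers as a covariate. Chrm3 changed by 2.23 without those 3 animals. Cdh19 failed without animal 383 or 453, Chrm3 without 381, 382 or 461, and Spon2 without 453.

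Several of these rises were not shared by males. Loxl4 fell in control males by 0.99 (SE 0.26, adjusted p = 0.0037) and the changes differed by 2.74 (SE 0.35, adjusted p = 1.5e-06, edgeR). Mboat1 and Chrm3, a muscarinic acetylcholine receptor, also fell in males, by 1.13 (SE 0.37) and by 1.38 (SE 0.34), with differences of 2.84 (SE 0.54) and 2.82 (SE 0.52). Crybg2 and Micall2 rose in males too, by 1.64 (SE 0.19) and 1.29 (SE 0.35), and their differences of -0.38 (SE 0.26) and 0.27 (SE 0.47) did not pass. Of the 584 genes that passed in control females, 135 also passed the test of the difference from males and 122 that of the difference from HF/HS females.

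**Figure D4:**
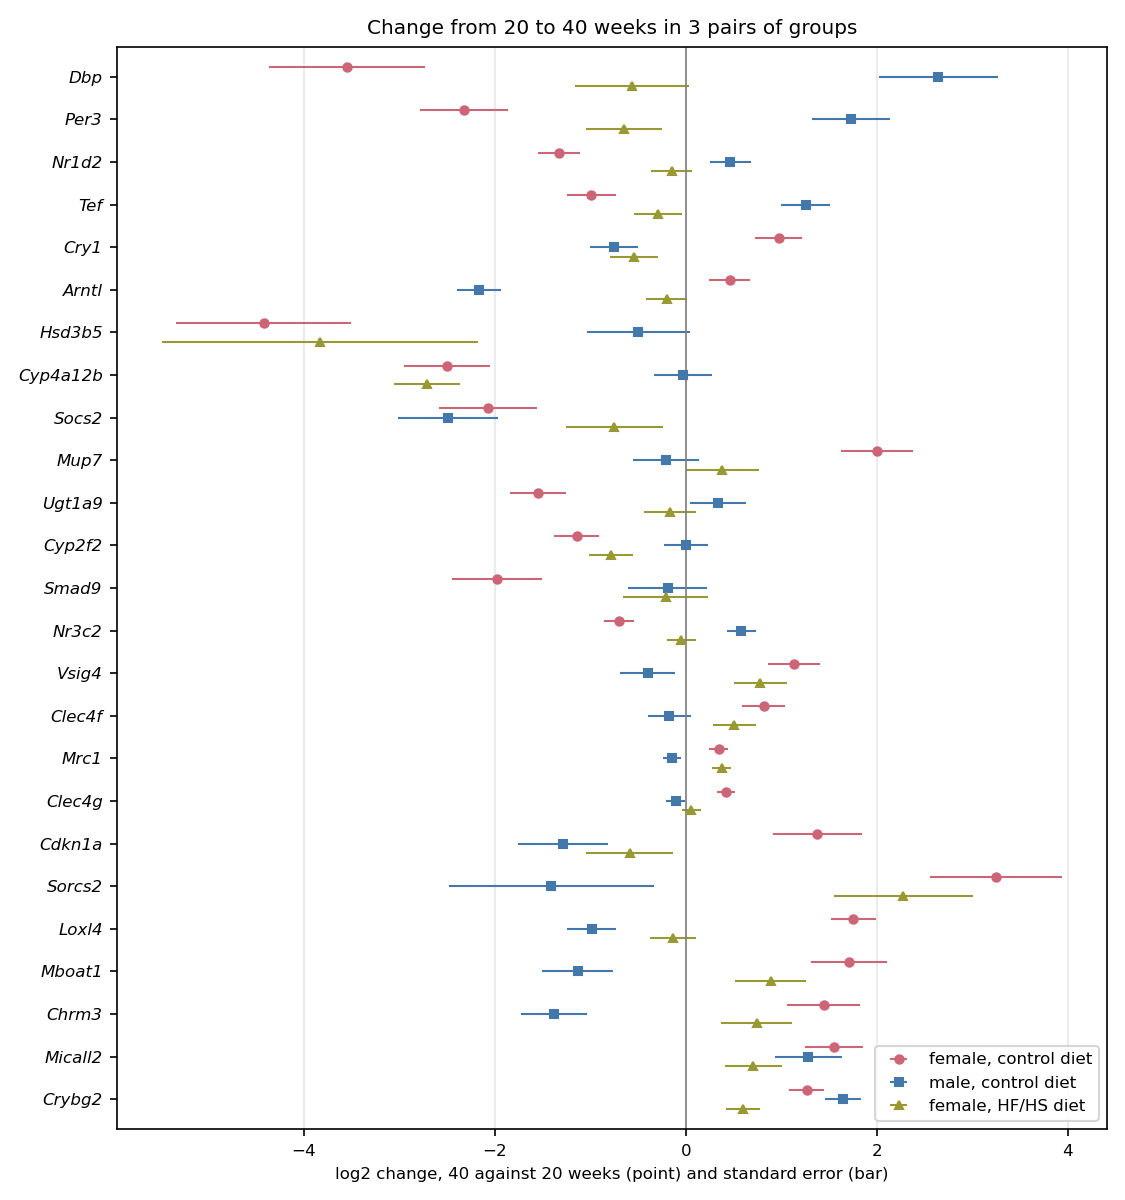
Log2 change from 20 to 40 weeks (points) with its standard error (bars) for 25 genes in control-diet females, control-diet males and HF/HS females, which share no animals. Dbp, Per3, Tef, Cry1, Loxl4, Mboat1 and Chrm3 lie on opposite sides of 0 in females and males on the control diet, and Crybg2 and Micall2 on the same side.

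Among the other genes that fell, Smad9, a transducer of bone morphogenetic protein signals, was at 20.9, 9.03, 15.6, 17.0 and 8.43 CPM at 20 weeks and at 1.61, 6.32, 1.78, 2.95 and 5.53 CPM at 40 weeks. The groups did not overlap, and the log2 change was -1.97 (SE 0.47, adjusted p = 0.0126). Nr3c2, the mineralocorticoid receptor, fell by 0.70 (SE 0.16, adjusted p = 0.00656) on the log2 scale, with overlap through animal 202, and missed the threshold without 203, 383 and 463 (adjusted p = 0.0729). Nr3c2 rose in males by 0.58 (SE 0.15), a difference of -1.28 (SE 0.22, adjusted p = 0.00017). Nox4, an oxidase that makes hydrogen peroxide, was at 1.22 to 2.54 CPM and 0.281 to 0.888 CPM (log2 change -1.84, SE 0.53, adjusted p = 0.035), and failed in 7 of the 10 fits without 1 animal (381, 382, 383, 452, 453, 462 or 463). Cfd (adipsin), a protease of adipocytes, was at 0.427 to 1.98 CPM and 0.133 to 0.526 CPM (log2 change -2.49, SE 0.71, adjusted p = 0.0331). It was the sole gene of 8 from the adipose list that passed, where 4.12% of all genes passed. The call of Cfd was lost in 6 of the 10 fits without 1 animal (202, 381, 382, 452, 453 or 462). The adipocyte genes Adipoq and Plin1 were at or below 1.49 CPM in all 10 libraries.

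Lists of metabolism held few calls, as did the whole set of genes, of which 4.12% passed. With edgeR 0 of 24 cholesterol genes, 28 fatty acid oxidation genes, 22 glucose genes, 20 lipid droplet genes, 29 respiratory chain genes and 34 extracellular matrix genes passed. At an unadjusted p under 0.05 these lists held 1, 3, 5, 2, 3 and 2 genes, DESeq2 gave 1, 1, 1, 1, 0 and 0, and limma voom 1, 3, 3, 1, 3 and 2. Fasn, fatty acid synthase, differed by -0.13 (SE 0.37), Cpt1a, the gate of mitochondrial fatty acid oxidation, by -0.02 (SE 0.14) and Pck1, of gluconeogenesis, by 0.08 (SE 0.24). Agpat2, an acyltransferase of triglyceride synthesis, was the sole gene of 20 in its list to pass, at 170 to 218 CPM and 230 to 259 CPM (log2 change 0.39, SE 0.08, adjusted p = 0.00348, and 0.0592 without 203, 383 and 463). On the HF/HS diet Agpat2 changed by -0.27 (SE 0.08), a difference of 0.66 (SE 0.11, adjusted p = 0.00076) between the diets.

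Cyp7a1, which catalyses the controlling step of the classical bile acid pathway, was at 34.1, 81.8, 82.0, 26.1 and 239 CPM at 20 weeks and at 19.4, 33.8, 31.6, 10.9 and 28.5 CPM at 40 weeks. The ranges overlapped, animal 383 was far above the rest, and the log2 change of -1.90 (SE 0.59) missed the threshold (adjusted p = 0.0522). Without animal 383 the log2 change of Cyp7a1 was -1.19 (adjusted p = 0.211), and without 203, 383 and 463 it was -0.99 (adjusted p = 0.431). It passed in 5 of the 19 alternative fits, at an adjusted p of 0.027 with DESeq2 and of 0.0425 and 0.0441 without animal 202 or 382, and limma voom gave -1.26 (adjusted p = 0.131). In males and in HF/HS females it changed by 0.72 (SE 0.56) and 0.78 (SE 0.55), and the control-diet female change was lower than these by 2.62 (SE 0.81, adjusted p = 0.037) and by 2.68 (SE 0.81, adjusted p = 0.048, edgeR). Whether these differences pass without animal 383 was not tested. Klb, the coreceptor through which the gut hormone FGF15 represses Cyp7a1, was lower by 0.45 (SE 0.13, adjusted p = 0.042) without overlap. It was the sole gene of 26 in the bile acid list that passed with edgeR, where 4.12% of all genes passed. In that list 7 were under an unadjusted p of 0.05, DESeq2 called 5 and limma voom 8. The call of Klb was lost in 7 of 10 fits without 1 animal (203, 382, 452, 453, 461, 462 or 463).

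Small changes close to the threshold filled the remaining lists. Of 22 lysosome and autophagy genes 3 were higher and 0 lower, where 1.99% of all genes were higher. Among the 3 were the cathepsins Ctsb (log2 change 0.34, SE 0.09) and Ctsd (0.28, SE 0.09), proteases of the lysosome. Without animal 382, 0 of the 22 passed. Abca1, which exports cholesterol to high-density lipoprotein, was at 661 to 1037 CPM, the highest in animal 383, and then at 603 to 673 CPM. Its log2 change of -0.27 (SE 0.08, adjusted p = 0.0495) was -0.15 without animal 383, and 7 of the 10 fits without 1 animal lost the call (381, 383, 452, 453, 461, 462 or 463). The fetal growth factor Igf2 was at 6.89 to 12.9 CPM and then at 8.99, 10.3, 46.0, 14.7 and 18.9 CPM, so that animal 461 held the largest part of its rise. The log2 change of Igf2 was 1.13 (SE 0.33, adjusted p = 0.0395), and without animal 461 it was 0.53 (adjusted p = 0.384). Prom1, a membrane protein of bile duct and progenitor cells, rose by 0.71 (SE 0.21, adjusted p = 0.0397) with overlap, and failed in 7 of those 10 fits (202, 382, 383, 453, 461, 462 or 463). Of 15 bile duct cell markers tested 2, Prom1 among them, were higher and 0 were lower, with a median log2 change of -0.0103. Of 17 fetal liver and liver tumour genes 2, Prom1 and Igf2, were higher and 0 were lower, with a median of 0.31. Of all genes 1.99% were higher.

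Among genes that changed in another way on the HF/HS diet, Tnk2, a non-receptor tyrosine kinase, rose by 0.50 (SE 0.14) on the log2 scale on the control diet and fell by 0.47 (SE 0.14) on HF/HS. The difference was 0.97 (SE 0.19, adjusted p = 0.004, edgeR). Tmeff1, a transmembrane protein with follistatin-like domains, fell by 0.69 (SE 0.21) on the control diet and rose by 0.72 (SE 0.22) on HF/HS, a difference of -1.41 (SE 0.31, adjusted p = 0.0073). Ranbp3l, a nuclear export factor, differed from males instead. It fell by 1.54 (SE 0.39) in control females and changed by 0.73 (SE 0.45) in control males, a difference of -2.27 (SE 0.60, adjusted p = 0.013). On HF/HS Ranbp3l changed by -0.19 (SE 0.37), and its difference between the diets did not pass (-1.36, SE 0.54, adjusted p = 0.141). The control-diet calls of these 3 genes were each lost without animal 382 or 461, and those of Tnk2 and Tmeff1 were lost in 6 and 8 of the 10 fits without 1 animal.

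**Figure D5:**
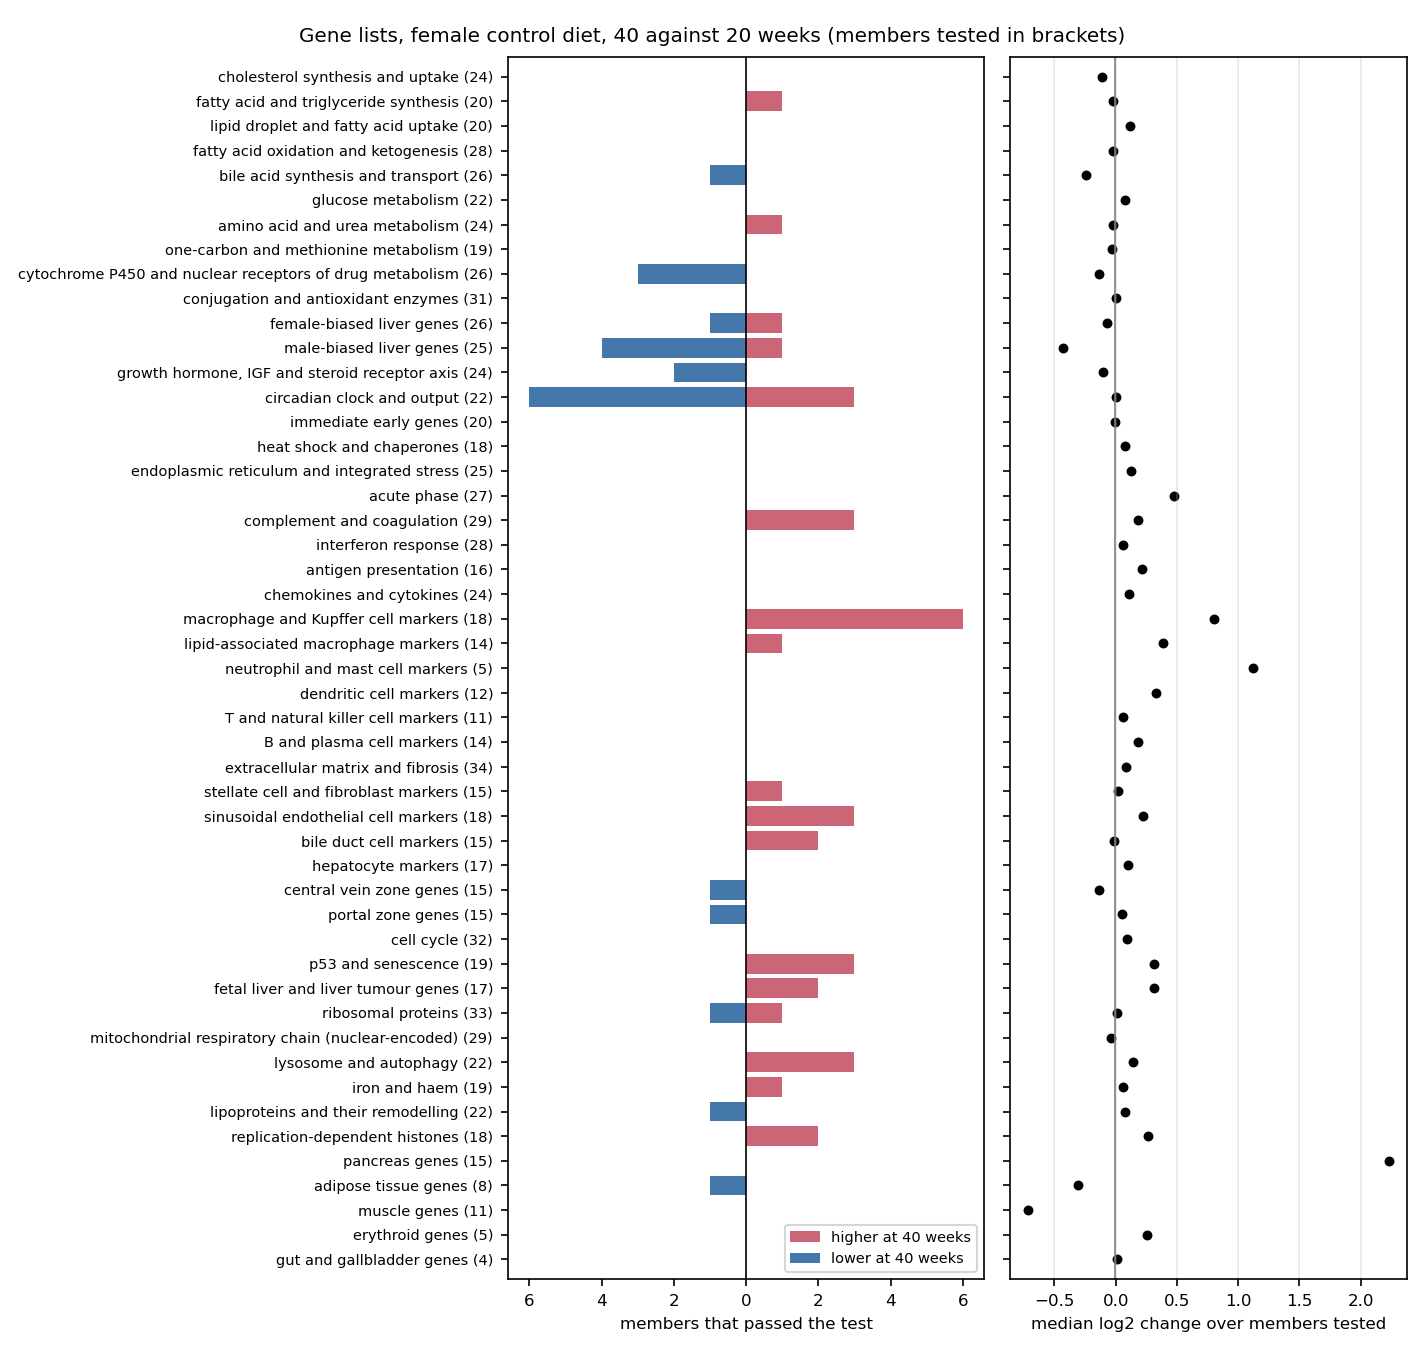
For each gene list, with the number of members tested in brackets, the left panel gives the members that passed the test as higher (to the right of 0) or lower (to the left) at 40 weeks, and the right panel the median log2 change of the members tested, with a grey line at the median of all genes. The clock list has the most calls, and the pancreas list, with 0 calls, has the largest median.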

How the data were processed

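Livers were flash frozen, RNA was extracted with miRNeasy kits, and stranded total RNA libraries depleted of ribosomal RNA were made, per the labels' protocols. The file deposited by the authors gives raw counts for each gene symbol in each library. The genome build was mm10 according to the submitters' processing notes, and the sources used here do not name the aligner, the annotation or whether strand was used in counting. Of 24982 entries 4778 had no count, and the 26 symbols turned into dates were tested but not named.

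One edgeR 4.0.16 quasi-likelihood model (R 4.3.3) of all 60 libraries and 12 group means, with TMM scaling and filterByExpr (minimum count 10, minimum total 15), left 14180 genes and 48 residual degrees of freedom. Contrasts gave the female control change and its differences from the changes in control males and in HF/HS females. Genes under a Benjamini-Hochberg adjusted p of 0.05 passed. SE is the log2 change over the square root of F, which is an approximation. Alternatives were RLE scaling, DESeq2 1.42.0, limma 3.58.1 voom, no filter, removal of 48 small RNA genes, other sets of libraries and the number range (at or above 371).

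Members and gene lists were chosen with earlier results of these data known, so lists are described by counts and medians without a test. Genes were named by a rule: the 10 highest and lowest changes without overlap at a mean of at least 1 CPM, up to 3 per list, a panel, and the 5 highest and lowest differences from males and from HF/HS. Tef, Csnk1d, Npas2, Nudt7, Clec4f, Lyz2 and Mrc1 were added after their values were seen. Within groups no pair of libraries agreed within sampling noise, so each counted as 1 replicate. Promoter sequences are from RefSeq (GRCm38.p6). Some genes that the rule names are not reported here, and counts over lists include them.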

Additional observations from a re-analysis of the deposited data

Results flagged for a closer look

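Across 122 groups (61 genes named in the report, each at 20 and at 40 weeks), 12 held a single animal far from the other 4 by Dixon's test, whose 95% critical value is 0.71 for 5 animals, and chance gives about 1 group in 20. Of the 12, 8 were in the 20-week group. The 20-week animal 383 accounted for 6 of them: Cyp7a1 at 239 CPM and Abca1 at 1037 CPM were high, Ugt1a7c was high at 3.22 CPM, and Mrc1 at 98.2 CPM, Clec4g at 52.6 CPM and Cdh19 at 0.186 CPM were low. Cdkn1a was high in animal 381 at 138 CPM, and Cfd was low in animal 203 at 0.427 CPM. At 40 weeks, Csnk1d was high in animal 452 at 111 CPM, Ugt1a7c was low in animal 461 at 0.222 CPM, Igf2 was high in animal 461 at 46.0 CPM and Tmeff1 was high in animal 463 at 16 CPM.

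By edgeR's test of the difference itself, the change from 20 to 40 weeks on the control diet differed between females and males for 31 of these genes. Some of the genes were named for this difference, so the count does not measure how common it is. Over all genes tested the share was 7.47%. Neither this difference nor that between the diets was followed gene by gene when animals were left out. The values below are the female minus the male log2 change. Among clock genes they were -6.19 for Dbp, -4.05 for Per3, -2.24 for Tef, -1.80 for Nr1d1, -1.79 for Nr1d2 and -1.21 for Per2, and 1.73 for Cry1, 2.62 for Arntl and 3.43 for Npas2. Male-biased and metabolic genes gave -3.92 for Hsd3b5, -2.47 for Cyp4a12b, 2.21 for Mup7, -2.62 for Cyp7a1, -2.37 for Ugt1a7c, -1.89 for Ugt1a9, -1.76 for Cyp2c55, -1.14 for Cyp2f2 and 0.44 for Agpat2. Markers of macrophages and endothelium gave 1.53 for Vsig4, 0.99 for Clec4f, 0.49 for Mrc1 and 0.53 for Clec4g. The rest were 4.65 for Sorcs2, 2.84 for Mboat1, 2.82 for Chrm3, 2.74 for Loxl4, 2.66 for Cdkn1a, 1.61 for Igf2, 0.72 for Tnk2, -1.28 for Nr3c2 and -2.27 for Ranbp3l.

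The change also differed between the control and the HF/HS diet in females for 12 of these genes, given as control minus HF/HS. Some were likewise named for this difference, and over all genes tested the share was 3.55%. The values were -1.18 for Nr1d2, 1.52 for Cry1, 0.32 for Csnk1d, -2.68 for Cyp7a1, -1.38 for Ugt1a9, -1.64 for Ugt1a7c, -1.72 for Cyp2c55, 0.62 for Aen, 1.89 for Loxl4, 0.66 for Agpat2, -1.41 for Tmeff1 and 0.97 for Tnk2.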

How the results depend on the processing

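No gene named here changed direction while passing the test in any of the 19 alternative fits, and 12 kept their call in all of them. The 584 genes of the main comparison became 893 with DESeq2, 1691 with limma voom and sample quality weights, 206 with the 10 libraries alone, 238 with the animal number range as a covariate, 315 with 20-week animals of the upper number range and 312 without animals 203, 383 and 463, an alternative chosen after seeing the data. Leaving out 1 animal gave 272 to 780. The 1059 genes that differed between the sexes became 1713 with voom, 563 with only the libraries compared and 619 without animals 203, 383 and 463, and 662 to 1219 without 1 animal. The 504 that differed between the diets became 1448 with voom and 300 without a count filter, and 253 to 523 without 1 animal, the lowest without animal 452. The cause of these shifts was not tested. RLE scaling gave 602, 1074 and 503 genes. No paired analysis was possible because the animal numbers are all different and the groups share none.

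The 40-week libraries were all shallower than the 20-week ones, and the animal number range differed in part between the durations, so neither can be told apart fully from duration. Where nothing says how animals were housed or sampled, p-values measure the spread between these samples.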

Other observations

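A few genes outside the groups above changed by small amounts. Hist1h4h, a histone gene of the replication-dependent class, was at a mean of 23.2 CPM at 20 weeks and 31.3 CPM at 40 weeks (log2 change 0.43, SE 0.08, adjusted p = 0.00172, edgeR) and passed in all 19 alternative fits, while 0 of 32 cell cycle genes passed. Fth1, the heavy chain of ferritin, the iron store, was higher by 0.21 (SE 0.05, adjusted p = 0.0182), and failed in 2 of the 10 fits without 1 animal. Nags, which makes the activator of the urea cycle, was the sole gene of 24 in the amino acid list to pass, where 4.12% of all genes passed. Nags differed by 0.25 (SE 0.07, adjusted p = 0.0392), and failed in 9 of those 10 fits. Of 33 ribosomal protein genes 2 passed, beside the 4.12% of all genes. These were Rps2 by 0.23 (SE 0.07, adjusted p = 0.0332) and Rps6 by -0.23 (SE 0.07, adjusted p = 0.035), in opposite directions, and they failed in 9 and 6 of those 10 fits.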
